A study of Homo sapiens with 4 samples.

Results

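The plasminogen activation system was examined as 6 genes, PLAU, PLAUR, PLAT, SERPINE2, SERPINB6 and SERPINB8, taken from the count table by an exact match of the gene symbol. Symbols matched for 4 of the 6 genes and gave 8 of the 14540 RefSeq mRNA rows of the table. PLAU and PLAT were not analysed here. PLAUR, SERPINE2 and SERPINB8 had 1 row each and SERPINB6 had 5, and the row with the highest summed count was taken as the main row of a gene. The cells were PLC/PRF/5, a human hepatocellular carcinoma line. There were 2 control libraries and 2 libraries of cells in which USP22, a deubiquitinase of the SAGA coactivator complex, had been knocked down with lentivirus. All 4 came from cells kept for 48 h in hypoxia (1% oxygen, 5% CO2, the rest nitrogen), so no value here compares hypoxia with normal oxygen. How the control cells were treated is not described beyond the names control and NC, and the labels do not say whether the replicates were separate cultures. The p-values therefore measure the spread between these libraries, which may be technical.

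Plasminogen is a liver-made zymogen that is cut to plasmin, the protease that dissolves fibrin and helps cells move through matrix. The cut is made by urokinase (the PLAU product), which acts on the cell surface when bound to its receptor uPAR (the PLAUR product), or by tissue-type activator (the PLAT product). Serpins hold these proteases in check by trapping them in a covalent complex. SERPINE2, also called protease nexin-1, is secreted and traps thrombin, urokinase and plasmin. SERPINB6 and SERPINB8 belong to the clade B serpins, most of which stay inside the cell, and SERPINB8 is known as an inhibitor of furin.

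The rows are mRNA accessions, and for these genes the accession decides which form of the protein is being read. Each accession was matched by its exact version to a GENCODE 29 transcript (GRCh38). Exonic bases found in no other RefSeq-matched transcript of the gene are called its own bases. All 8 rows had own bases, from 17 to 454. Of the 19 matched accessions of the 6 genes that were not analysed here, 11 had own bases. The PLAUR row, NM_001005376.2, is the form with its own last exon. It lies on chromosome 19, minus strand, and 454 of its 1254 bases are its own. Its protein is known as the soluble form, without the signal for the lipid anchor that holds uPAR on the membrane. The anchored form was not analysed here. The SERPINE2 row, NM_006216.3 (chromosome 2, minus strand), has 34 own bases in 2195, of which 3 are coding. The 5 SERPINB6 rows (chromosome 6, minus strand) differ in their first exons. Coding sequences of NM_001271822.1, NM_001271825.1 and NM_001297699.1 are identical, NM_001195291.2 adds 4 codons in front of that sequence and NM_001271823.1 adds 19. The SERPINB8 row, NM_198833.1 (chromosome 18, plus strand), shares its GENCODE transcript with a second accession, and that transcript has 17 own bases, none of them coding.

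The coding stretches that set rows apart are printed 5′ to 3′ from the GENCODE 29 transcripts. Capitals mark the row's own coding bases and lower case marks coding bases shared with other transcripts of the gene. The PLAUR stretch holds the last 89 coding bases of the row (chr19:43646460-43646548, GRCh38, minus strand). The 3 own coding bases of SERPINE2 (chr2:223980398-223980400, minus strand) stand at an exon junction. For SERPINB6 the coding starts of the main row, of NM_001195291.2 (own bases chr6:2968779-2968780) and of NM_001271823.1 (own bases chr6:2970758-2970804) show how the 3 protein starts differ. The build named in the submitters' notes is hg19, and no coordinate was converted.
PLAUR NM_001005376.2: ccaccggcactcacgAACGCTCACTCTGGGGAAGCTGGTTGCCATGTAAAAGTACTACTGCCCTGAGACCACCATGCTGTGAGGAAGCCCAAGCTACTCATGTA
SERPINE2 NM_006216.3: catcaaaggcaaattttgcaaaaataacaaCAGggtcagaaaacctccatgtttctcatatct
SERPINB6 NM_001271822.1: atggatgttctcgcagaagc
SERPINB6 NM_001195291.2: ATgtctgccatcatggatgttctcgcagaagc
SERPINB6 NM_001271823.1: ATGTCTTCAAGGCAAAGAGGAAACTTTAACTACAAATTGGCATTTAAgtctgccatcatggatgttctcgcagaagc

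Library totals ran from 15027209 to 17194929 counts. USP22 had 46513 and 41607 counts in the controls and 5438 and 7683 after knockdown, which checks the labels. Levels below are in CPM, counts per megaread of a library total scaled by TMM, and a mean of 2 libraries is given ± SD. Rows were tested with edgeR's quasi-likelihood test over 12337 rows, and "adjusted p" is its Benjamini-Hochberg value, with a threshold of 0.05. Markers of the hepatocyte lineage fixed for the check of the line were all tested (10 of 10), and summed to 10600 to 13400 CPM in control and 19600 to 30400 CPM in knockdown libraries. Most of that sum was APOB (10211 ± 2001 and 22078 ± 7704 CPM). Of the 10 markers 3 rose (APOB, AFP and FGB), 0 fell and 7 did not pass, among them ALB (726 ± 98.2 and 641 ± 132 CPM), TTR, APOA1 and SERPINA1. For other cell types, 2 of 8 macrophage and leukocyte markers (32 to 35.9 CPM in control, 25.1 to 28.2 in knockdown), 4 of 7 fibroblast markers (20.5 to 31.7 and 19 to 23.8) and 4 of 6 endothelial markers (11.7 to 18.6 and 23.7 to 29.7) had a row. Of 2 tested endothelial markers 1 rose (PECAM1, 12.4 ± 3.32 to 25.3 ± 4.19 CPM, adjusted p = 0.0185) and 1 did not pass. The 1 tested macrophage and leukocyte marker and the 3 tested fibroblast markers did not pass. In RNA of a whole culture, fewer cells of a type and less RNA per cell cannot be told apart.

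No row of these genes passed the test in either direction. Of the 8 rows 6 met the minimum for the test, and 0 of these 6 were called, beside 18.7% of all tested rows. None of the 6 had an unadjusted p under 0.05 in edgeR (0 rows), and DESeq2 and limma-voom also called 0 and gave 0 with an unadjusted p under 0.05. The groups did not overlap in 2 of the 6 rows, beside 59.6% of all tested rows. With 6 rows, 5 of them from 1 gene, these counts do not set the members apart from the table as a whole.

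**Figure D1:**
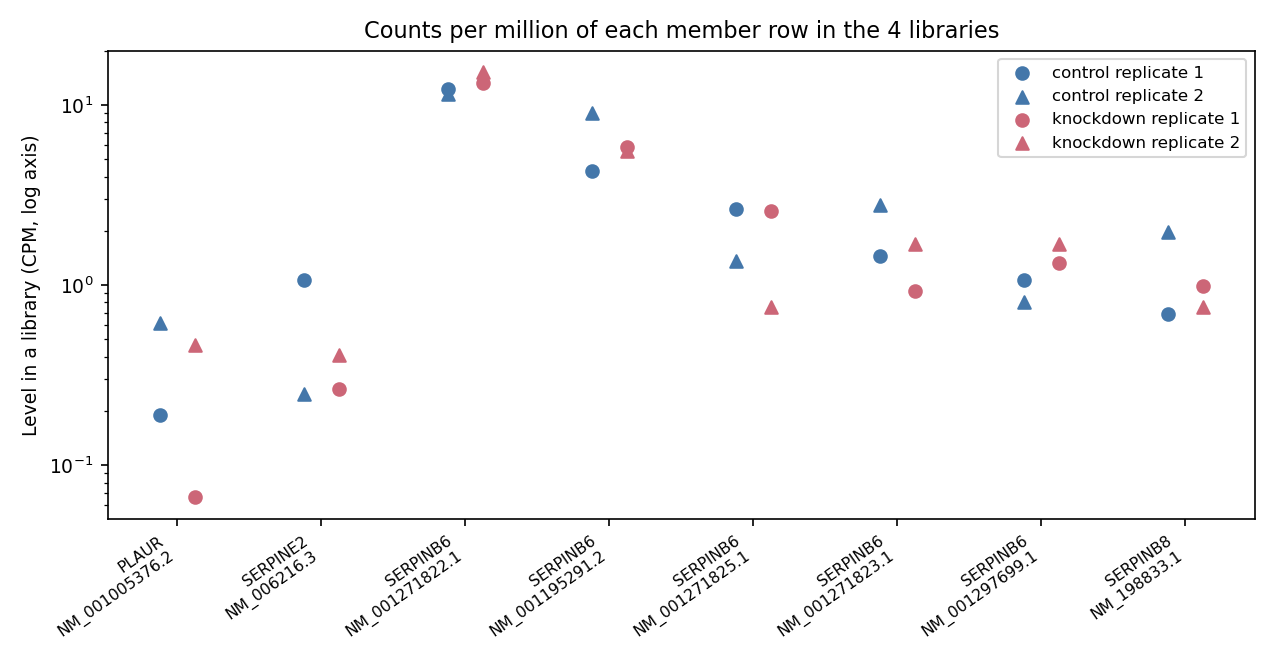
Level of each member row (CPM, log axis) in the 4 libraries; circles are replicate 1 and triangles replicate 2, blue is control and red is USP22 knockdown. The main SERPINB6 row lies between 11.6 and 15.3 CPM in all libraries, while the PLAUR row spans 0.0661 to 0.618 CPM.

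The urokinase receptor was read by few counts. The PLAUR row had 3 and 10 counts in control replicates 1 and 2 and 1 and 8 counts in knockdown replicates 1 and 2. In CPM these were 0.189 and 0.618 in control and 0.0661 and 0.466 in knockdown. Replicate 2 was the higher in both groups, and the groups overlapped. The 2 control libraries differed 3.26-fold and the 2 knockdown libraries 7.05-fold, both more than the ratio of the groups, 0.686 (knockdown over control). The 95% interval of that ratio, exact binomial and for counting error only, ran from 0.259 to 1.74. The annotated RNA gene RN7SL368P overlaps PLAUR on the same strand over 277 bases. The row did not reach the minimum for the test, and only 1.97% of tested rows had a lower control level. A 2-fold loss and a small gain of the row both lie within the binomial interval, and neither was detectable at this depth.

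SERPINE2, the extracellular inhibitor of thrombin and urokinase, was as scarce. Its row had 17 and 4 counts in the controls and 4 and 7 after knockdown, or 1.07 and 0.247 CPM against 0.264 and 0.408 CPM. A single library, control replicate 1, stood above the other 3, and control replicate 2 was the lowest of all. The groups overlapped, and the 2 control libraries differed 4.34-fold. The ratio of knockdown to control was 0.519, with a 95% exact binomial interval of 0.226 to 1.13 for counting error only. With mean CPM in place of summed counts the log2 ratio was −0.97, and it turned to 0.44 without control replicate 1. The minimum for the test had to be reached in 2 libraries. This row reached it in control replicate 1 alone and was not tested either.

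SERPINB8, the furin inhibitor, had just enough counts to be tested. Its row held 11 and 32 counts in the controls and 15 and 13 after knockdown (0.695 and 1.98 CPM against 0.992 and 0.757 CPM). Both knockdown libraries fell between the 2 control libraries. The log2 fold change was −0.61 ± 0.74 (SE, n = 2 per group) and did not pass (adjusted p = 0.625 in edgeR's test). Its 95% interval reached from 0.217-fold to 1.98-fold of control, so changes of about 2-fold in either direction lie within it. Without control replicate 2 the log2 fold change was 0.33. HMSD overlaps the gene on the same strand over 11850 bases and AC009802.1 on the opposite strand over 257 bases, and the library kit did not mark strand, so reads in the overlap cannot be assigned to a gene by strand.

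SERPINB6 carried most of the counts of the 4 genes, 1550 over its 5 rows, and its values held the closest bounds. The main row NM_001271822.1 had 195 and 187 counts in the controls and 201 and 262 after knockdown. Its level was 12.3 and 11.6 CPM in control and 13.3 and 15.3 CPM in knockdown, so that both knockdown libraries were above both control libraries. The log2 fold change was 0.26 ± 0.26 and did not pass (adjusted p = 0.553). The 95% interval was 0.807-fold to 1.77-fold of control. The 2 libraries of a group differed by 1.06-fold in control and 1.15-fold in knockdown. That 1.06-fold was the smallest difference between the control libraries among all member rows.

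The other SERPINB6 rows were lower and more scattered. NM_001195291.2, the form with 4 added codons, had 68 and 146 counts in the controls and 89 and 96 after knockdown. Both knockdown values fell between the control values, which differed 2.103-fold, and the log2 fold change was −0.22 ± 0.38 (adjusted p = 0.756). NM_001271825.1 had 42 and 22 counts in the controls and 39 and 13 after knockdown, with replicate 1 the higher in both groups (−0.28 ± 0.65, adjusted p = 0.823). The form with 19 added codons, NM_001271823.1, had 23 and 45 counts in the controls and 14 and 29 after knockdown. Here replicate 2 was the higher in both groups, and the groups overlapped (−0.69 ± 0.61, adjusted p = 0.484). NM_001297699.1 had 17 and 13 counts in the controls and 20 and 29 after knockdown, or 1.07 and 0.804 CPM against 1.32 and 1.69 CPM. Its groups did not overlap, and its ratio of 1.62 had an exact binomial interval of 1.01 to 2.64 from counting error alone. With the spread between libraries taken in, it did not pass (0.68 ± 0.66, adjusted p = 0.528).

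Summed over the 5 rows, SERPINB6 had 345 and 413 counts in the controls and 363 and 429 after knockdown. In CPM these were 21.8 and 25.2 in control (23.5 ± 2.42) and 24.0 and 25.2 in knockdown (24.6 ± 0.796). The groups overlapped. The log2 fold change of the sum was 0.06 ± 0.22 (adjusted p = 0.872 in edgeR's test on rows summed per gene), with a 95% interval of 0.748-fold to 1.46-fold of control. A 2-fold change of the summed rows in either direction lies outside this interval.

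**Figure D2:**
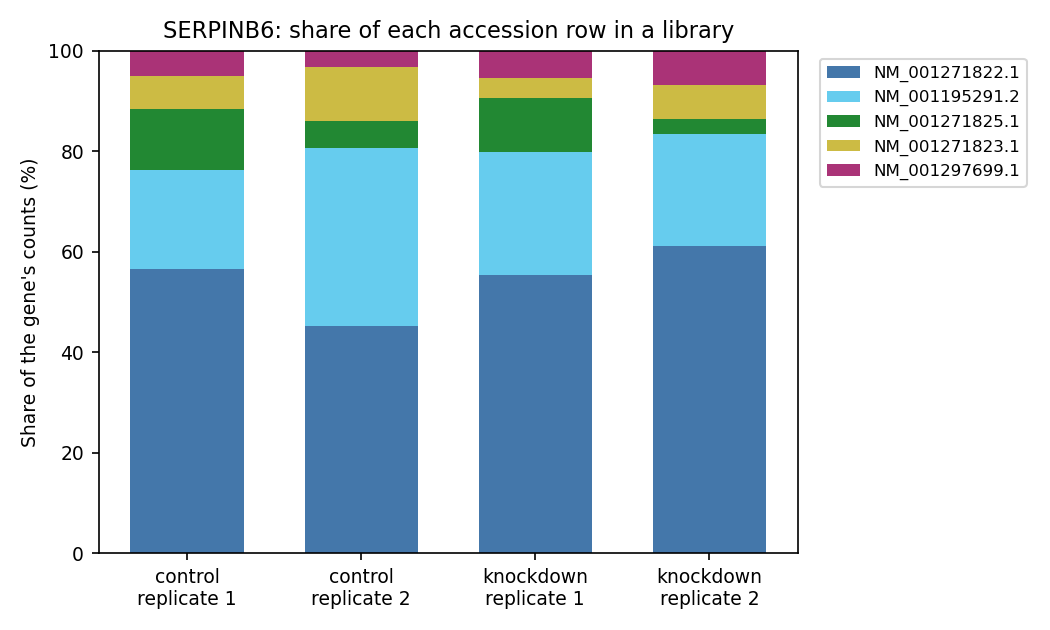
Share of each accession row in the SERPINB6 counts of a library (%), stacked to the whole; 1 bar is 1 library. The main row takes 45.3% to 61.1% and NM_001195291.2 takes 19.7% to 35.4%, with both extremes of the latter in control libraries.

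The 2 leading SERPINB6 rows kept their order in all 4 libraries, and the other 3 rows changed places between libraries. The main row made up 56.5% and 45.3% of the gene's counts in the controls and 55.4% and 61.1% after knockdown. NM_001195291.2 made up 19.7% and 35.4% in control and 24.5% and 22.4% in knockdown. Both shares overlapped between the groups. The 2 forms with added codons, NM_001195291.2 and NM_001271823.1, differ in coding sequence only at the start shown above, and the other 3 rows encode the same protein. With 2 libraries against 2 an exact permutation test of a share cannot reach 0.05, and none was run.

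Levels between rows can be compared only per length. Per kb of transcript, in control cells, the main SERPINB6 row had 8.71 CPM and NM_001195291.2 had 3.27. NM_001271823.1 had 1.35 and NM_001271825.1 had 1.34. NM_001297699.1 had 0.573, SERPINB8 0.395, PLAUR 0.322 and SERPINE2 0.301 CPM per kb. The last 4 were not tested for differences in level. Their order turns on the length used, since per kb of own bases SERPINB8 had 78.6, SERPINE2 19.4 and PLAUR 0.89 CPM. These values divide all counts of a row by 17, 34 and 454 own bases, and the counts are not known to fall there. They are no measure of level, and the 17 bases of SERPINB8 belong to both accessions of its transcript. The counting of reads shared by several accessions is a step not given in the sources used here, so a low row does not show a low gene.

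**Figure D3:**
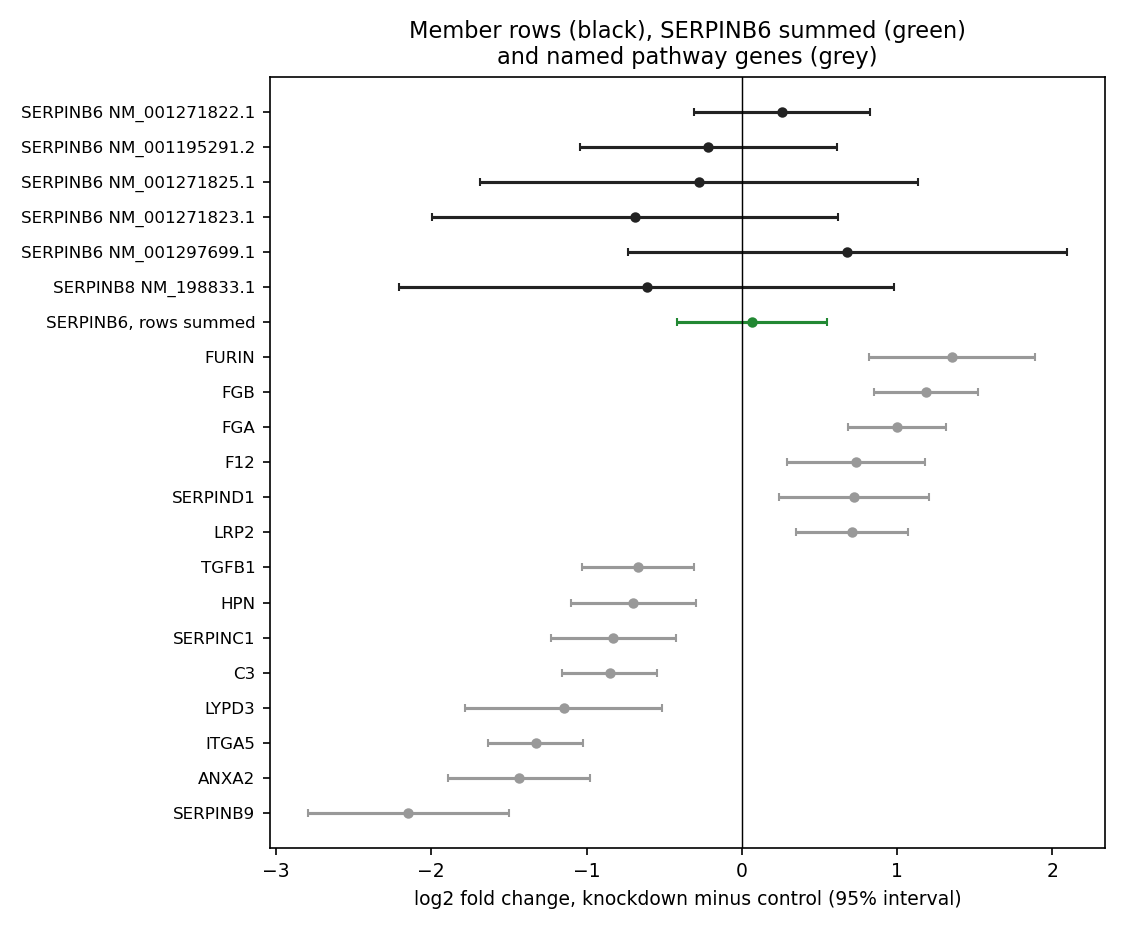
log2 fold change (knockdown minus control) with its 95% interval for the 6 tested member rows (black) and the summed SERPINB6 rows (green). Grey marks named genes of the further lists, grouped by role or protein family. All black and green intervals include 0, and those of the grey genes, which were named for passing the test, do not.

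The neighbour of SERPINB6 on chromosome 6 behaved otherwise. SERPINB9, the adjoining protein-coding gene in the RefSeq order and the inhibitor of granzyme B, was the single tested gene of the other clade B serpins (1 of 11). It had 763 and 1095 counts in the controls and 262 and 153 after knockdown, and fell from 57.9 ± 13.8 to 13.1 ± 5.95 CPM. The log2 fold change was −2.15 ± 0.30, with an adjusted p of 0.00036. Its 95% interval, 0.144-fold to 0.354-fold of control, does not meet that of the summed SERPINB6 rows. The difference between the 2 genes was not tested itself.

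Around the members, 107 further genes were listed in 6 groups by role or protein family, of which 62 could be tested by their main row. Of these 9 rose and 15 fell, beside 8.49% of all tested rows that rose and 10.2% that fell, and 38 did not pass. Their median log2 fold change was −0.135, beside 0.0007 over all tested rows. A listed gene counts by its main row alone, while the shares cover all 12337 tested rows of 10779 genes. The units of the 2 sides therefore differ, here and for each list below. A listed gene can have further rows, whose values were not used in these counts. Of the genes that fell, TEX101, PRSS8 and MMP13 reached the minimum for the test through the control libraries alone.

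**Figure D4:**
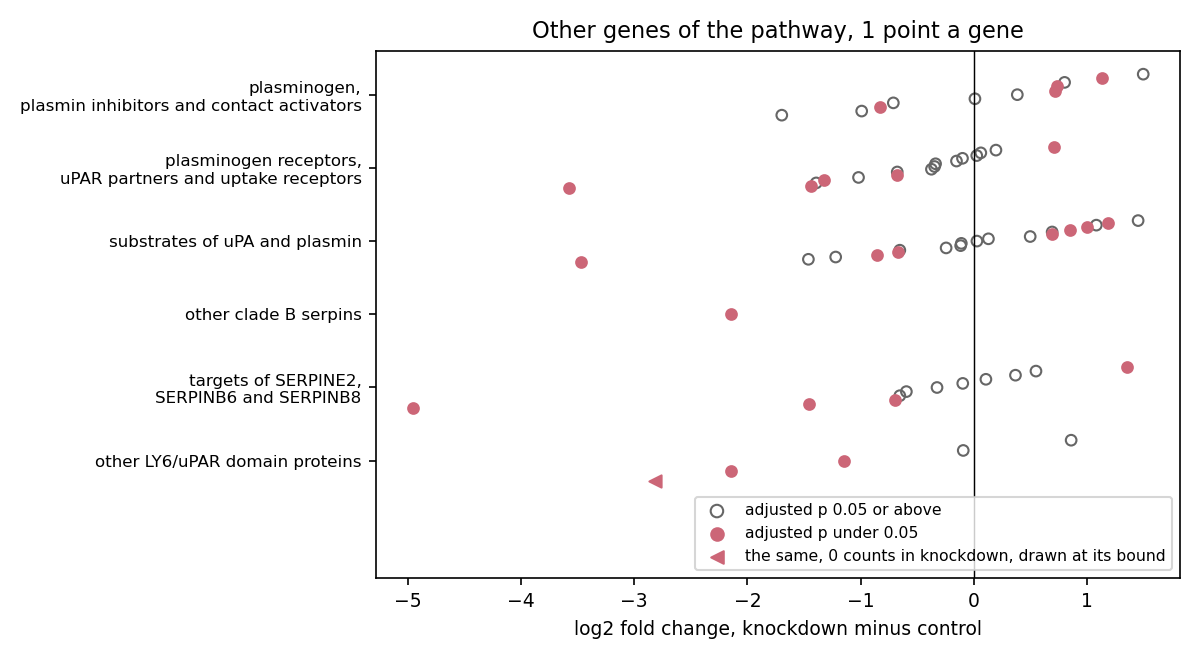
log2 fold change (knockdown minus control) of each tested gene of the 6 lists; filled points have an adjusted p under 0.05. The triangle marks TEX101, with 0 counts in both knockdown libraries, drawn at the bound set by 3 counts over the group.

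Among the regulators of plasmin and clotting, of 11 tested genes 3 rose and 1 fell, and 7 passed in neither direction. The median log2 fold change was 0.38, and of all tested rows 8.49% rose and 10.2% fell. Antithrombin (SERPINC1), the main plasma inhibitor of thrombin, fell from 82.8 ± 6.29 to 46.6 ± 3.44 CPM (−0.83 ± 0.19, adjusted p = 0.00764). Heparin cofactor II (SERPIND1) rose from 52.9 ± 17.4 to 87.1 ± 6.03 CPM (0.72 ± 0.22, adjusted p = 0.0397), and coagulation factor XII (F12) from 630 ± 92.7 to 1050 ± 345 CPM (0.74 ± 0.21, adjusted p = 0.0248). Plasminogen itself (PLG) had 2 and 1 counts in the controls and 6 and 29 after knockdown. It reached the minimum for the test in knockdown replicate 2 alone and was not tested. The calls of SERPIND1 and F12 were lost without control replicate 1 (adjusted p = 0.379 and 0.0974), that of F12 also without knockdown replicate 2 (0.116) and that of SERPINC1 without control replicate 2 (0.0578).

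Of 16 tested genes for plasminogen receptors, uPAR partners, uptake receptors and their associated proteins, 4 fell, 1 rose and 11 did not pass (median log2 fold change −0.36). Over all tested rows 10.2% fell and 8.49% rose. Annexin A2 (ANXA2), which binds plasminogen and its tissue-type activator at the surface, fell from 52.0 ± 4.76 to 19.2 ± 0.641 CPM (−1.44 ± 0.21, adjusted p = 0.000539). ANXA2 has 3 rows, and their sum also fell (−1.32, adjusted p = 0.000718). The integrin chain ITGA5, part of the fibronectin receptor with which uPAR associates, fell from 3365 ± 28.7 to 1342 ± 73.4 CPM (−1.33 ± 0.14, adjusted p = 5.6e-05). LRP2, an endocytic receptor that takes up activator-inhibitor complexes, rose from 106 ± 9.84 to 173 ± 1.81 CPM (0.71 ± 0.17, adjusted p = 0.0103). With control replicate 1 left out, LRP2 did not pass (adjusted p = 0.118).

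Among substrates of urokinase and plasmin 4 of 19 tested genes rose, 3 fell and 12 did not pass (median log2 fold change 0.03). The shares of all tested rows were 8.49% higher and 10.2% lower. MMP13, among the 3 that fell, had 26 and 20 counts in the controls and 1 and 3 after knockdown. It reached the minimum for the test through the control libraries alone, so a call could only be lower. The fibrinogen chains led the increases. FGB rose from 623 ± 28.3 to 1417 ± 171 CPM (1.19 ± 0.15, adjusted p = 0.00023) and FGA from 644 ± 6.34 to 1288 ± 58.5 CPM (1.00 ± 0.15, adjusted p = 0.000516). FGB is also 1 of the 3 hepatocyte markers of 10 that rose, while ALB, TTR, APOA1 and SERPINA1 did not pass, and the part of such a difference in these values was not tested. Complement C3 fell from 4829 ± 10.7 to 2676 ± 303 CPM (−0.85 ± 0.14, adjusted p = 0.0013). The growth factor TGFB1, which plasmin can release from its latent form, fell from 141 ± 2.87 to 88.7 ± 2.34 CPM (−0.67 ± 0.17, adjusted p = 0.0138), a call that was lost without either control library (adjusted p = 0.0663 and 0.0825).

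The proteases and receptors on the target side of SERPINE2, SERPINB6 and SERPINB8 gave 1 gene higher, 3 lower and 7 not passing of 11 tested. Their median log2 fold change was −0.33, and of all tested rows 8.49% were higher and 10.2% lower. PRSS8, among the 3 lower genes, had 22 and 16 counts in the controls and 0 and 1 after knockdown. It reached the minimum for the test through the control libraries alone, so a call could only be lower. The main row of FURIN, the convertase that SERPINB8 inhibits, rose from 11.3 ± 0.388 to 29.04 ± 4.88 CPM (1.36 ± 0.25, adjusted p = 0.00233). FURIN has 3 rows, and their sum rose less (0.89, adjusted p = 0.0125). HPN, the membrane protease hepsin, fell from 74.6 ± 1.67 to 46.0 ± 4.25 CPM (−0.70 ± 0.19, adjusted p = 0.0201). That call was lost without control replicate 1, control replicate 2 or knockdown replicate 2 (adjusted p = 0.11, 0.0722 and 0.0544).

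Proteins that share the LY6/uPAR fold with the urokinase receptor gave 0 genes higher, 3 lower and 2 not passing of 5 tested. Beside these counts, 8.49% of all tested rows were higher and 10.2% lower. The median log2 fold change of the 5 genes was −1.15, also with TEX101 at its bound. TEX101, among the 3 lower genes, had 10 and 11 counts in the controls and 0 and 0 after knockdown. It reached the minimum for the test through the control libraries alone, so a call could only be lower. LYPD3, a lipid-anchored relative of uPAR, fell from 22.9 ± 4.05 to 10.3 ± 3.63 CPM (−1.15 ± 0.29, adjusted p = 0.0154), and with control replicate 1 left out it did not pass (adjusted p = 0.061). The PLAUR row, too low to be tested, gives no value to set beside these.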

How the data were processed

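RNA of 4 libraries was sequenced, 2 of control and 2 of USP22 knockdown cells. Bcl2fastq, HISAT2 2.1.0, HTSeq and the build hg19 are named, without roles, in the submitters' processing notes, and the counting used settings not given in the sources used here. In 1 table the authors deposited whole-number counts per RefSeq mRNA accession, with their own log2 fold changes and p-values and q-values, which were not used. Groups were read from the titles.

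The members and lists were chosen with earlier results of these data known. Counts were fitted in R 4.3.3 with edgeR 4.0.16, as deposited: TMM factors, filterByExpr with a minimum count of 10 (12337 of 14540 rows kept), glmQLFit and glmQLFTest on the group alone, and Benjamini-Hochberg adjustment over all kept rows. A standard error is the log2 fold change divided by the square root of F. Alternatives used DESeq2 1.42.0, limma 3.58.1 (voom) and other filters, scalings and designs. From each list the 2 genes with the largest change in each direction were named, taking only genes that passed and averaged 10 CPM or more. A listed item is not reported here. PLG, TEX101, PRSS8 and MMP13 were named after their values were seen. For members that pass, the rows of most similar profile were to be named, and no member passed. Transcript models were those of GENCODE 29, and the order of genes came from RefSeq on GRCh38.p14.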

Additional observations from a re-analysis of the deposited data

How the results depend on the processing

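No member passed under any of the alternatives that gave it a value. Main-row log2 fold changes ranged from 0.16 to 0.37 for SERPINB6 (0.06 for its rows summed) and from −1.18 to 0.33 for SERPINB8. PLAUR and SERPINE2 could be fitted only with no filter beyond 1 count (−0.56 and −0.93, adjusted p = 0.831 and 0.638). Leaving out 1 library moved the log2 ratio of mean CPM over −2.61 to 0.49 for PLAUR and −1.68 to 0.44 for SERPINE2. Neither has a direction here. Over all rows 2304 were called, 3531 with the replicate number as a block and 837 against a minimum fold of 1.5. Of the further listed genes 24 were called, and 11 against that fold. Same-numbered libraries had deviations correlated at r = 0.136 across 12337 rows and 0.261 across the 5730 rows averaging 10 CPM or more, which are not independent, and the labels give the numbers no meaning. The depth of the rows, 22 to 845 counts, limits what could be detected.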
